A study of Mus musculus with 47 samples.

Results

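The diet effect at ZT6, in the middle of the light phase, was examined in 8 of the 47 cortical RNA libraries of the series, chosen by their labels as the 4 control mice and the 4 PLX5622 mice harvested at that time. The remaining 39 libraries, from 19 control and 20 PLX5622 mice, came from ZT2, ZT10, ZT14, ZT18 and ZT22 and gave the diet effect with which ZT6 was compared. All mice were adult male C57BL/6J animals, about 2 to 3 months old, kept under a 12-h light and 12-h dark cycle with lights on at ZT0. The control group ate control chow, whose base is not named, and the PLX5622 group ate AIN-76A chow with 1200 ppm of the inhibitor, each for 10 days. PLX5622 inhibits CSF1R, a receptor tyrosine kinase, in the whole body, and the libraries were made from bulk cortical tissue with 1 library per mouse. The mice were housed 4 to a cage, and which mice shared a cage is not given in the labels.

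Microglia are the resident macrophages of the brain and depend on CSF1R, whose ligands CSF1 and IL34 are made by neurons and glia, for their survival. They survey the tissue through purinergic receptors such as P2RY12, tag and clear material with complement C1q, Fc receptors and TREM2, and degrade it with lysosomal cathepsins. The cortex also keeps time, through a feedback loop in which CLOCK and BMAL1 (encoded by *Arntl*) switch on *Per*, *Cry* and *Nr1d1* genes whose products then repress them. The comparison at ZT6 asks whether the loss of microglial transcripts, or any response of other cells, took a particular form at this hour.

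Microglial transcripts fell at ZT6. Levels are given in TPM, an abundance unit corrected for transcript length and library size, and effects as differences in log2(TPM + 1), PLX5622 minus control, which understate the change of genes with low TPM. A gene was called where limma gave a Benjamini-Hochberg adjusted p under 0.05 over the 14580 genes whose mean reached 1 TPM, in a fit of all 12 groups. At ZT6, 147 genes were called, 1.01% of those tested. Of these, 141 were lower with PLX5622 (0.967% of genes tested) and 6 were higher (0.0412%). The lower genes included 137 protein-coding genes, 112 of the 147 called genes were below 50% of the control level and 72 were below 25%. In 140 of the 141 lower genes all PLX5622 mice lay below all control mice, against 4.17% of all genes tested. In 5 of the 6 higher genes all PLX5622 mice lay above all control mice, against 1.32% of all genes tested. The same mice made the calls, which favours such separation, so it is no separate support for them. The p-values set each effect against the spread between mice within groups, taken over all 12 groups. From bulk RNA alone, fewer microglia and less RNA per microglial cell cannot be told apart. The study also stained IBA1 in the other hemisphere and reports that PLX5622 removed most microglia at all times.

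The libraries at ZT6 held 16673590 to 18356965 counted reads in control mice and 18605079 to 23451422 in PLX5622 mice, so the totals did not overlap between diets (two-sided exact permutation test, p = 0.0286, the smallest that 4 against 4 mice allow, and 0.105 after Benjamini-Hochberg adjustment over 11 library measures). Mitochondrial transcripts took 7.09% to 9.73% of the counts in control mice and 8.36% to 8.90% in PLX5622 mice. Control mouse 4 stood apart from the other control mice in several summed marker levels. Its 7 tested blood cell genes summed to 3055 TPM, against 276 to 467 TPM in the other control mice and 200.2 to 1483 TPM in PLX5622 mice, and none of these genes was called. The part of total counts and of blood RNA in the results was not tested. Without control mouse 4, 128 genes were called at ZT6 (125 lower, 3 higher), and without each other mouse in turn 130 to 140 (127 to 134 lower).

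On the log2(TPM + 1) scale the deepest fall among the called genes was that of *P2ry12*, the purinergic receptor by which microglia sense ATP and ADP (chr3:59216272-59262871, minus strand, GRCm38). It stood at 38.1, 45.4, 41.7 and 44.9 TPM in control mice 1 to 4 and at 4.78, 4.64, 1.17 and 3.87 TPM in PLX5622 mice 1 to 4. The groups were far apart, and PLX5622 mouse 3 was the lowest. The mean fell from 42.5 ± 3.38 to 3.62 ± 1.68 TPM (SD, n = 4 each), which left 8.50% of the control level, and the log2 effect was -3.33 ± 0.32 (SE; limma adjusted p = 1.12e-09). *Csf1r*, the target of the drug, was next with an effect of -3.26 ± 0.43. Its levels were 50.5, 43.9, 43.6 and 50.5 TPM in control mice and 4.54, 4.39, 2.89 and 4.38 TPM in PLX5622 mice (adjusted p = 1.28e-06). The remaining *Csf1r* transcript was thus close to 4.4 TPM in 3 of the 4 PLX5622 mice and lower in mouse 3.

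The smallest p of all genes tested at ZT6 belonged to *Crybb1*, a crystallin gene used as a marker of immature and resident microglia. Control mice had 14.4, 14.3, 13.2 and 13.4 TPM and PLX5622 mice had 0.865, 1.51, 0.738 and 1.16 TPM. The effect of -2.85 was smaller than that of *P2ry12* and had a standard error of only 0.18 (limma adjusted p = 1.41e-14). That error comes from the spread within all 12 groups of the fit and not from the ZT6 mice alone. *Itgam*, which encodes the CD11b chain of complement receptor 3, behaved alike with 7.47 to 9.23 TPM in control and 0.357 to 0.847 TPM in PLX5622 mice (effect -2.46 ± 0.16). Beside *P2ry12*, *Csf1r* and *Crybb1*, the 12 largest falls among called genes on this scale were those of *C1qb*, *Selplg*, *Fcer1g*, *Ctss*, *Fcrls*, *Laptm5*, *C1qa*, *C1qc* and *Siglech*, with effects from -3.17 for *C1qb* to -2.89 for *Siglech*. Their control means ran from 17.8 TPM for *Siglech*, a microglial sialic acid lectin, to 97.7 TPM for *C1qa*. What was left of them in PLX5622 mice ran from 9.15% of control for *Selplg*, a selectin ligand, to 12.8% for *C1qa*.

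**Figure D1:**
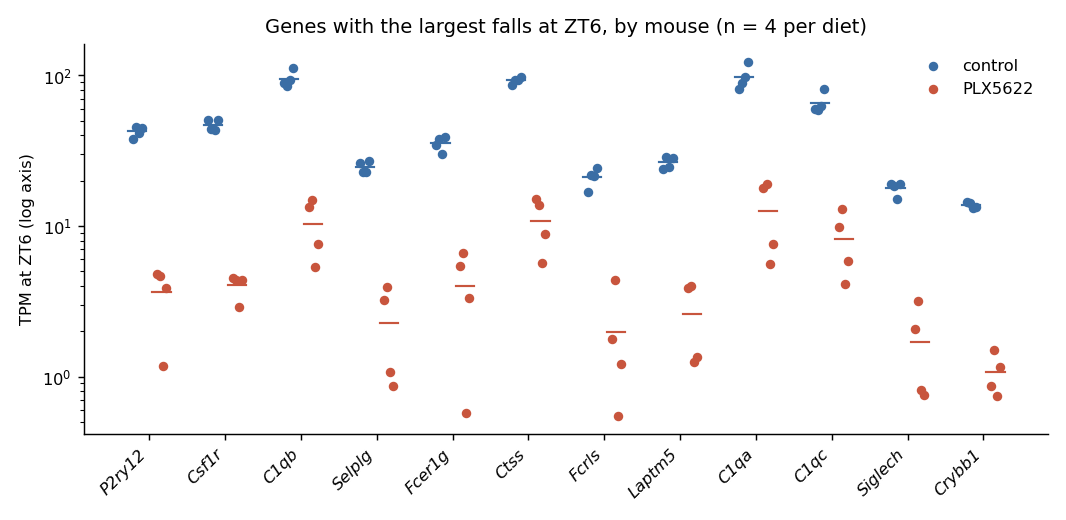
TPM of the 12 genes with the largest falls at ZT6, on a log axis, with 1 point per mouse, 4 control (blue) and 4 PLX5622 mice (red), and a line at each group mean. No PLX5622 mouse reaches a control mouse in any of the 12 genes, and the PLX5622 points spread more on this axis than the control points, as for *Fcer1g* with 0.575 to 6.62 TPM.

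The promoters of these genes were looked at because the genes fell together and because PU.1, the factor encoded by *Spi1* on which macrophages depend, binds purine-rich sites built around GAGGAA. The RefSeq promoter windows (250 bases before to 50 after a start site, GRCm38.p6) covered 104 of the 141 lower genes and 10858 of the 14580 genes tested. The 8 letters GAGGAAGT, on either strand, were present in a window of 17 of these 104 genes (16.3%) and of 349 of the 10858 genes (3.21%). The 6 letters GAGGAA alone, which include every GAGGAAGT, were present in 56.7% and 30.2%. Windows of 9 of the 12 genes with the largest falls were then read singly. *Selplg* and *C1qa* had no window, and *Csf1r* was left out of this reading only, not of the search behind the counts above. Of the 9 genes, *Ctss* and *C1qc* held GAGGAAGT and are shown for that reason. Each has the match in capitals, which here reads ACTTCCTC because it lies on the opposite strand.
Ctss, chr3:95526536-95526835, plus strand: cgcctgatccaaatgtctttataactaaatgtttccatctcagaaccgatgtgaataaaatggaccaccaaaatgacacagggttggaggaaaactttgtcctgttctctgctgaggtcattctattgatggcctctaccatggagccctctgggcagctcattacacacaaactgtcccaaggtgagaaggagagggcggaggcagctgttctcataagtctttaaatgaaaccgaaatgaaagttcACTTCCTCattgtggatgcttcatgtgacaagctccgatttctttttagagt
C1qc, chr4:136892865-136893164, minus strand: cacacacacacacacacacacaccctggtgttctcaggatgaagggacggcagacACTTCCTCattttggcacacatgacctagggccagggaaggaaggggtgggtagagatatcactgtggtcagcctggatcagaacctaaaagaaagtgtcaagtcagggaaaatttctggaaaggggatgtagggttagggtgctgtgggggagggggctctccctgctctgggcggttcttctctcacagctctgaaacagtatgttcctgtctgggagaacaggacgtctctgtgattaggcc
The match began 2 bases before the start site in *Ctss* and 195 bases before it in *C1qc*. A match of letters is a description of the window and not evidence that PU.1 was bound there.

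The gene lists that describe microglia and their functions were then read one by one. Only members that reached the minimum of 1 TPM over all libraries were tested, and a gene that fell could reach it through the control mice. Of the 20 genes of the homeostatic microglia list, all tested, 18 fell and 2 (*Sparc* and *Adgrg1*) were not called. The median effect of the list was -2.22, against -0.03 over all genes tested. The mean log2(TPM + 1) over the list was 4.13 to 4.38 in the control mice, and 2.33, 2.48, 1.80 and 2.05 in PLX5622 mice 1 to 4. Mice 1 and 2 were highest on this measure and mouse 3 lowest, whereas the summed TPM of the list, 387, 337, 355 and 378, was lowest in mouse 2. *Aif1*, which encodes the IBA1 protein used to stain microglia, kept 19.2% (effect -2.09).

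Of 20 complement genes 12 were tested and 6 of these fell, among them the 3 C1q chains, *Itgam* and *Itgb2*, and *C4b* rose. *C1qa* stood at 81.5, 88.6, 97.2 and 123 TPM in control mice and at 17.8, 19.0, 5.58 and 7.63 TPM in PLX5622 mice, with mice 1 and 2 above mice 3 and 4. Its effect was -3.01 ± 0.45 (adjusted p = 1.12e-05). Of the 20 genes of the TREM2 pathway and phagocyte list 15 were tested and 6 fell. They included *Trem2*, the lipid-sensing receptor (30.7 ± 3.28 to 4.04 ± 1.12 TPM), and *Tyrobp*, its signalling adaptor (76.1 ± 6.48 to 11.6 ± 5.39 TPM), with effects of -2.68 ± 0.28 and -2.70 ± 0.40. Of 11 Fc receptor and TAM phagocytosis genes 4 fell, all of them Fc receptor chains, *Fcer1g*, *Fcgr1*, *Fcgr2b* and *Fcgr3*. Of 19 Toll-like receptor and adaptor genes only 8 were tested. The 3 that fell were *Ly86*, *Unc93b1* and *Cd14*, with effects of -2.49, -1.76 and -1.35. *Cd14* averaged 0.509 TPM in PLX5622 mice at ZT6, below the minimum. *Myd88*, the shared adaptor of most Toll-like receptors, had overlapping levels of 2.69 to 4.05 TPM in control and 2.90 to 7.86 TPM in PLX5622 mice (limma adjusted p = 0.358).

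Of 23 cathepsin and lysosomal enzyme genes 6 fell, and the list as a whole moved less than the microglial receptors, with a median effect of -0.31. The fall was deepest in *Ctss*, the microglial cysteine protease cathepsin S, with 86.1, 93.8, 93.4 and 97.1 TPM in control mice and 15.1, 13.8, 5.64 and 8.88 TPM in PLX5622 mice (effect -3.06 ± 0.40, adjusted p = 1.07e-06). *Ctsc*, another cysteine protease, kept 50.7% of control. Of 12 lineage transcription factor genes 6 fell. *Spi1* was at 3.85, 4.58, 6.60 and 9.34 TPM in control mice and at 0.484, 1.62, 0.247 and 0.352 TPM in PLX5622 mice, without overlap, and its effect was -2.09 ± 0.26 (adjusted p = 4.2e-07). *Irf8* and *Ikzf1*, other regulators of the lineage, had effects of -1.30 and -1.25. In PLX5622 mice at ZT6 the means of *Spi1*, *Irf8* and *Ikzf1* were 0.675, 0.877 and 0.281 TPM, below the minimum for testing.

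Markers of other myeloid cells moved with the microglial genes. Border macrophages line the vessels and meninges and also carry CSF1R, and 3 of the 12 genes on their list, *Pf4*, *Stab1* and *Cbr2*, averaged 1 TPM or more. These passed the minimum through the control mice, being below 1 TPM on average in PLX5622 mice at ZT6, so that their calls alone do not describe the list. With no filter on low values all 12 genes had a negative effect and 8 were called lower in limma, and edgeR called 6 of the 11 it fitted. *Pf4*, a platelet and macrophage chemokine, was at 6.22, 4.81, 4.81 and 6.40 TPM in control mice and at 0.154, 0.838, 0 and 0.432 TPM in PLX5622 mice (effect -2.30 ± 0.28, adjusted p = 1.72e-07). *Stab1*, a scavenger receptor, and *Cbr2*, a carbonyl reductase, had effects of -1.78 and -1.45, and the *Cbr2* call (adjusted p = 0.0295) was lost without control mouse 2 or 3 or PLX5622 mouse 2, 3 or 4. The summed level of all 12 genes was 18.2 to 22.1 TPM in control and 1.93 to 2.94 TPM in PLX5622 mice. Of 14 MHC presentation genes, *H2-Ab1* and *H2-Aa*, which encode the chains of a class II molecule, fell to 32.4% and 39.6% of control (adjusted p = 0.0098 and 0.0349). The *H2-Ab1* call was lost without control mouse 3 or 4 or PLX5622 mouse 4, and that of *H2-Aa* without any 1 mouse other than control mouse 2. *Cd74*, the class II invariant chain, had an effect of -0.83 with an adjusted p of 0.136 and no overlap between groups.

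Of 10 genes for CSF1R, its ligands and related kinases only *Csf1r* was called. *Il34*, which encodes the main neuronal CSF1R ligand, was at 32.7 to 42.2 TPM in control and 39.9 to 62.2 TPM in PLX5622 mice (effect 0.34 ± 0.18, adjusted p = 0.732). *Kit*, a related receptor kinase, had an effect of -0.22 ± 0.21.

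PLX5622 mice had 6 genes called higher at ZT6. Only 1 of these, *C4b*, was also called higher over the other times. *C4b* encodes complement component 4, which astrocytes and other cells make in reactive states, and reads may be shared with its near-identical neighbour *C4a*. Control mice had 6.88, 6.32, 7.62 and 5.0 TPM and PLX5622 mice had 11.1, 8.87, 11.9 and 9.38 TPM, without overlap. This was a 1.60-fold rise (effect 0.61 ± 0.14, adjusted p = 0.0172), and edgeR on the counts gave 0.64 (adjusted p = 0.0129). The call was lost when control mouse 2, control mouse 4, PLX5622 mouse 1 or PLX5622 mouse 3 was left out. *C4b* was the only 1 of 14 astrocyte reactivity genes called. *Gfap*, the intermediate filament of reactive astrocytes, was at 129 to 179.6 TPM in control and 185 to 279.8 TPM in PLX5622 mice, without overlap, and its effect of 0.46 ± 0.21 had an adjusted p of 0.65. Over the other times *Gfap* was called higher with an effect of 0.58 (limma adjusted p = 5.2e-05), and the difference between the effects was -0.12 (95% interval -0.60 to 0.36).

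The other genes called higher were *Gm47936*, *Fancg*, *Isoc2b*, *AI429214* and *Endou*. *Gm47936*, annotated as antisense on chromosome 19, was at 0.450, 0.222, 0.257 and 1.5 TPM in control and 3.82, 2.25, 2.28 and 3.07 TPM in PLX5622 mice, a 4.70-fold difference (effect 1.31 ± 0.27, adjusted p = 0.00317). Its counts were 1 to 6 and 14 to 27, and since the strand setting of the counting is not stated, reads of the gene on the other strand cannot be told apart from it. *AI429214* was at 1.12 to 1.2 TPM in control and 1.97 to 2.23 TPM in PLX5622 mice (effect 0.51 ± 0.11, adjusted p = 0.0056), and edgeR on the counts gave 0.73 with an adjusted p of 0.052. *Endou*, a poly(U)-specific endoribonuclease gene, was at 1.93 to 1.97 and 2.76 to 4.10 TPM (effect 0.49 ± 0.13, adjusted p = 0.0441), and leaving out any 1 control mouse, or PLX5622 mouse 1, 3 or 4, ended the call. *Fancg*, a DNA crosslink repair gene, and *Isoc2b* rose in TPM by 0.95 and 0.71, but edgeR on the counts gave 0.19 and 0.10 (adjusted p = 0.744 and 0.881). The *Fancg* call was lost without control mouse 1 or 4 or PLX5622 mouse 2, 3 or 4, and the *Isoc2b* call without control mouse 1 or 2 or PLX5622 mouse 3 or 4. In *Fancg*, PLX5622 mouse 1 had 3.41 TPM, inside the control range of 2.72 to 4.53 TPM, and the other PLX5622 mice had 8.65 to 10.1 TPM.

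Neurons, glia and vessels were represented by lists of markers in which no gene was called at ZT6. None of 18 astrocyte identity, 18 myelin, 16 oligodendrocyte precursor, 18 excitatory neuron, 21 interneuron, 20 endothelial, 20 mural and fibroblast or 22 interferon response genes passed the limma threshold. Since 1.01% of all genes tested were called, few calls would fall in such lists in any case. The median effects of these lists lay between -0.17 for excitatory neurons and 0.15 for myelin. All 18 excitatory neuron genes had a negative effect in TPM and 17 of 18 with median-of-ratios scaling or edgeR, where 0 were called. *Neurod2*, a transcription factor of cortical projection neurons, had an effect of -0.37 (limma adjusted p = 0.602). Summed over the list, excitatory markers were at 5902 to 7535 TPM in control and 5311 to 6268 TPM in PLX5622 mice, with the highest value in control mouse 4. Markers of striatal projection neurons, which do not belong to the cortex, had a median effect of 0.46 at ZT6 and 0.12 over the other times. Their sum was 423 to 849 TPM in control and 712 to 1145 TPM in PLX5622 mice. Of the 16 genes 15 had a positive effect and 0 were called. *Tac1* of this list is also on the interneuron list. Whether striatal tissue in the samples had a part in these or the other effects was not tested. Likewise 0 of 12 perineuronal net genes was called. *Acan*, which encodes the net proteoglycan aggrecan, had a mean of 0.497 TPM over the series and was too low for the test, with 22, 40, 49 and 39 counts in control and 58, 72, 69 and 36 counts in PLX5622 mice (edgeR effect 0.32, adjusted p = 0.745).

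No clock gene was called for diet at ZT6. This held for the 9 activator and nuclear receptor genes, 13 repressor genes and 6 output genes of the clock lists. Over all genes tested 1.01% were called, so lists of this size would hold few calls in any case. The groups overlapped in every clock gene named here. *Arntl*, an activator, was at 10.5, 12.3, 11.9 and 12.5 TPM in control and 9.94, 10.9, 13.4 and 11.4 TPM in PLX5622 mice (effect -0.05 ± 0.11, adjusted p = 0.964). *Dbp*, an output gene whose level climbs through the light phase, was at 79.0, 73.6, 74.5 and 85.9 TPM in control and 69.4, 79.1, 67.5 and 69.9 TPM in PLX5622 mice (effect -0.13 ± 0.11, adjusted p = 0.872). Its means in both diets at ZT6, 78.3 and 71.5 TPM, lay between those at ZT2 (52.2 and 42.7 TPM) and those at ZT10 (123 and 119 TPM). *Per2*, a repressor, was uneven in TPM within both groups, with 2.93 to 8.10 TPM in control and 2.67 to 7.52 TPM in PLX5622 mice, 1 high mouse in each. Its counts spread less, 244 to 354 in control and 305 to 473 in PLX5622 mice. The effects of *Clock*, *Per1*, *Cry1*, *Cry2* and *Nr1d1* were -0.11, -0.10, 0.03, -0.14 and -0.13, with SE of 0.11, 0.19, 0.10, 0.11 and 0.13. The 95% interval reached 0.38 to either side in *Per1* and 0.42 in *Per2*, so smaller effects in these genes could not be seen even without adjustment over genes. Of 24 immediate early genes 0 were called, and the largest effect was that of *Nr4a3*, an activity-induced nuclear receptor gene, at -0.52 ± 0.19 (adjusted p = 0.359).

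**Figure D2:**
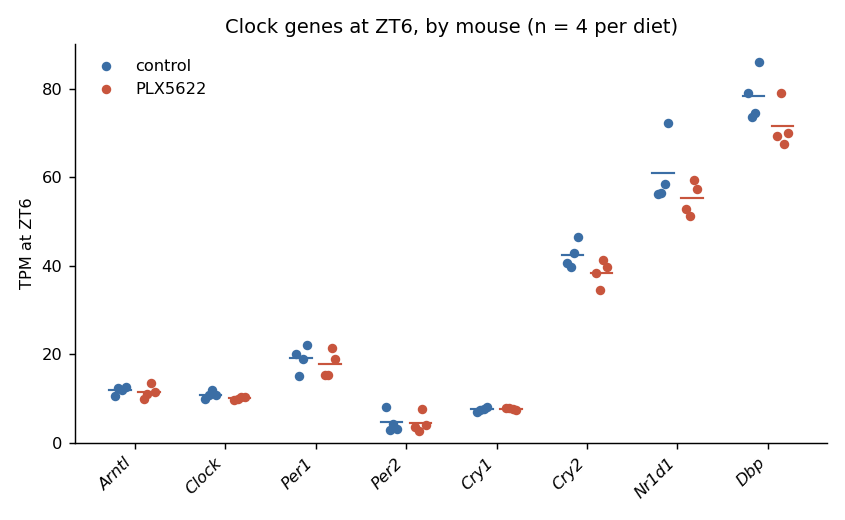
TPM of 8 clock genes at ZT6, with 1 point per mouse, 4 control (blue) and 4 PLX5622 mice (red), and a line at each group mean. The groups overlap in each gene. In *Nr1d1* control mouse 4, at 72.3 TPM, is above the other mice.

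The diet effect at ZT6 was next set against the effect in the 39 libraries of the other times, which share no mouse with it. Over the other 5 times, 406 genes were called (2.78% of those tested), 318 lower and 88 higher. Of the 147 genes called at ZT6, 138 (93.9%) were also called in the same direction there, which is 34.0% of the 406. They comprised 137 lower genes and *C4b*. The 141 lower genes had a median effect of -1.29 at ZT6 and -1.31 at the other times, and 136 of them were lower at each of the 5 other times taken singly. The comparison over 5 times rests on more mice, with a median SE of 0.07 against 0.15 at ZT6. Of the 268 genes called over the other times and not at ZT6, 237 had the same sign at ZT6. By single time the counts of called genes were 188 at ZT2, 147 at ZT6, 156 at ZT10, 132 at ZT14, 118 at ZT18 and 189 at ZT22, so ZT6 lay between the others.

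**Figure D3:**
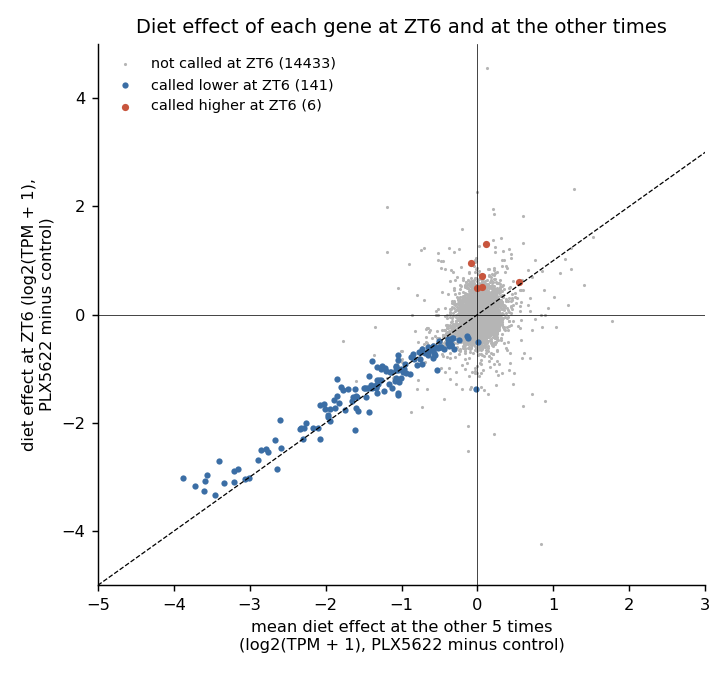
Each point is 1 of the 14580 genes tested, with its diet effect at ZT6 (vertical) against its mean effect at the other 5 times (horizontal), both in log2(TPM + 1). The 141 genes called lower at ZT6 (blue) follow the dashed line of equal effects down to about -3.3, and of the 6 called higher (red) only *C4b* has a like effect at the other times.

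The size of the microglial loss at ZT6 was inside the range of the other times. The homeostatic list differed between diets by -2.08 at ZT6, and by -2.42, -2.29, -2.24, -1.82 and -2.09 at ZT2, ZT10, ZT14, ZT18 and ZT22, in mean log2(TPM + 1). *P2ry12* had an effect of -3.33 at ZT6 and of -3.46 over the other times. Their difference was 0.13, with a 95% interval from -0.59 to 0.84. *C1qa* had the widest gap of the 12 deepest falls, -3.01 at ZT6 and -3.88 at the other times, a difference of 0.87 (95% interval -0.12 to 1.87, limma adjusted p = 0.937). In PLX5622 mice it averaged 12.5 TPM at ZT6 and 4.28, 8.30, 6.64, 11.5 and 7.31 TPM at ZT2, ZT10, ZT14, ZT18 and ZT22. The ZT6 mean was the highest of the 6, and the ZT18 mean was close to it. Over all genes tested, 4.6% had an unadjusted p under 0.05 for the difference. Of the 141 lower genes, 14 had such a p, 7 of them with a weaker and 7 with a deeper fall at ZT6. The Fcγ receptor gene *Fcgr3* and the interferon regulatory factor gene *Irf5* were among the former, with differences of 0.65 and 0.54. *Cd33*, a sialic acid lectin gene, and *Golm1*, a Golgi membrane gene, were among the latter, with differences of -0.51 and -0.48. None of the 14 passed after adjustment in limma. The 141 genes were chosen by the same ZT6 values that enter the difference, which favours deeper falls at ZT6. The even split therefore cannot show a balance of weaker and deeper falls.

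**Figure D4:**
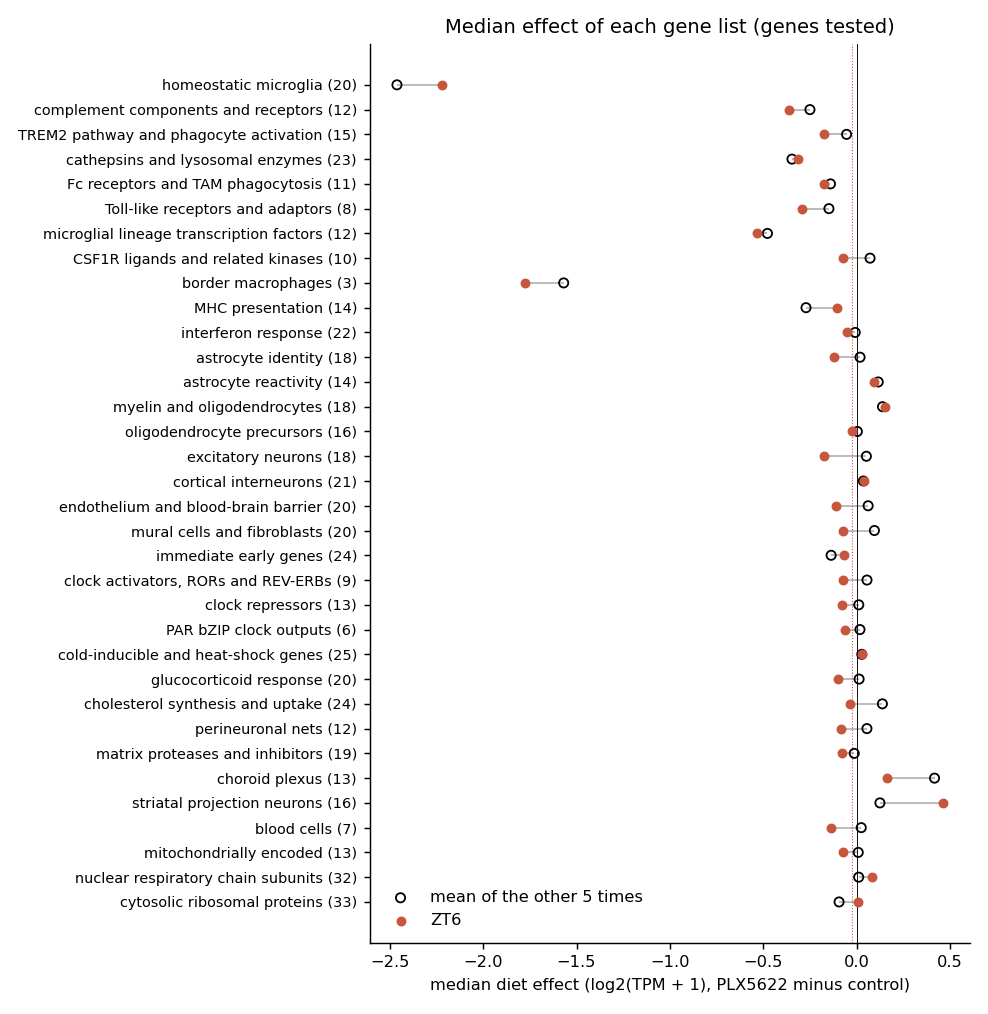
Median diet effect of each of 34 gene lists at ZT6 (filled red) and over the other 5 times (open black), in log2(TPM + 1), with the number of genes tested in brackets and a dotted line at the median of all genes at ZT6, -0.03. The homeostatic microglia (-2.22 and -2.46) and border macrophage lists (-1.78 and -1.57) lie far to the left at ZT6 and at the other times.

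No gene was called for a diet effect at ZT6 that differed from the mean of the other 5 times. In limma, 0 of 14580 genes passed (0%) and 670 had an unadjusted p under 0.05, which is 4.6% of the genes tested, and the smallest adjusted p was 0.76. With edgeR on the counts 0 genes passed and 1016 of 18274 had an unadjusted p under 0.05, and with DESeq2 1 gene passed and 1050 had such a p. Against single times, limma called 0 genes between ZT6 and ZT2 (508 at an unadjusted p under 0.05), 0 between ZT6 and ZT10 (906) and 0 between ZT6 and ZT18, the middle of the dark phase (452). For these 3, edgeR called 1, 0 and 0 genes and DESeq2 called 2, 1 and 0. The median half-width of the 95% interval of the difference from the other times was 0.32 on the log2 scale, without adjustment over genes. Smaller differences in most genes could not be seen with these mice. After adjustment larger ones were not called either, such as 1.04 in *Fancg*. Of the 670 genes, 534 had an effect at ZT6 below that at the other times and 136 above. With median-of-ratios scaling 850 genes had such a p, 442 below and 408 above, and the median difference over all genes moved from -0.06 to 0.00.

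The 1 gene called by DESeq2 was *Cd86*, a costimulatory molecule of macrophages and microglia, which had a mean of 0.753 TPM and was therefore not in the limma test. It is named because of this call, after its values were seen. At ZT6 it had 36, 44, 22 and 40 counts in control mice and 12, 18, 4 and 13 counts in PLX5622 mice. The PLX5622 mice had 0 to 2 counts at ZT2, 0 to 10 at ZT10, 2 to 10 at ZT14, 4 to 8 at ZT18 and 5 to 10 at ZT22. In TPM, which corrects for depth, the PLX5622 mean was 0.281 at ZT6 and 0.243 at ZT22, and the control mean at ZT6, 1.08 TPM, was the lowest of the 6 control means. The fall was -1.90 at ZT6 and -3.75 over the other times, a difference of 1.85 ± 0.39 (DESeq2 adjusted p = 0.0334). In edgeR the same difference was 1.81 (unadjusted p = 9.63e-05, adjusted p = 0.869), and against ZT2 alone it was 3.82 (adjusted p = 0.0261). With limma and no filter on low values it was 0.41 (adjusted p = 0.881). The gene called by DESeq2 between ZT6 and ZT10 was *Pld6*, and beside *Cd86* it called *Il10ra*, an interleukin-10 receptor chain gene that fell less at ZT6, between ZT6 and ZT2.

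The 12 genes with the smallest p for the difference held no microglial marker of the lists. They are described as the candidates ranked first, since none passed the threshold. *Fancg* had the smallest p (difference 1.04, 95% interval 0.57 to 1.52, unadjusted p = 7.85e-05, adjusted p = 0.76), and it was called when PLX5622 mouse 1 was left out (difference 1.35, adjusted p = 0.00222). On the counts its difference had an unadjusted p of 0.191 in edgeR. *Fancd2*, also a DNA repair gene, was not called at ZT6 (limma adjusted p = 0.0895) and was at 1.04 to 1.21 TPM in control and 1.68 to 2.85 TPM in PLX5622 mice at ZT6 (difference 0.71, 95% interval 0.37 to 1.06). On the counts the *Fancd2* difference was 0.40 with an unadjusted p of 0.0714 in edgeR. *Mir99ahg*, the host transcript of a microRNA cluster on chromosome 16, was at 6.10, 5.67, 8.11 and 8.97 TPM in control and 1.49, 3.58, 1.98 and 1.86 TPM in PLX5622 mice, with no overlap. Its effect was -1.37 at ZT6 and -0.01 over the other times, but its counts overlapped, 43 to 78 against 48 to 67, and edgeR gave an effect of -0.52 (adjusted p = 0.46). Its call at ZT6 was lost without control mouse 4 or PLX5622 mouse 1. The control mice at ZT6 had 7.21 TPM on average, against 2.45 to 4.37 TPM in the control groups of the other times. *Gm43590* was listed at 0 in all 4 PLX5622 mice and at 11.5 to 29.6 TPM in control mice, but control mice at ZT22 were also all listed at 0, and the count table held 0 reads for it in all 8 libraries at ZT6, control mice included.

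The remaining genes of this ranking were *Hdac6*, a cytoplasmic deacetylase gene, *Chaf1a*, a histone chaperone gene, *Lfng*, a modifier of Notch, *Cox4i2*, a respiratory subunit gene, *4930481A15Rik*, *Gm47936*, *AI429214* and *Endou*. Their differences ran from -0.75 for *Chaf1a* to 1.2 for *Gm47936*. Among the 12 genes of the ranking, the control mean at ZT6 was the highest or lowest of the 6 control means in 10. The PLX5622 mean at ZT6 was the highest or lowest of its 6 in 9, and both held in 7. In *Cox4i2* the control mean of 4.08 TPM was the lowest of 6, while the PLX5622 mean of 6.44 TPM lay between those of other times. The genes were ranked by a difference that the ZT6 means of both diets enter, which favours extreme means at ZT6. The counts of extreme means therefore cannot show from which diet a difference came.

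**Figure D5:**
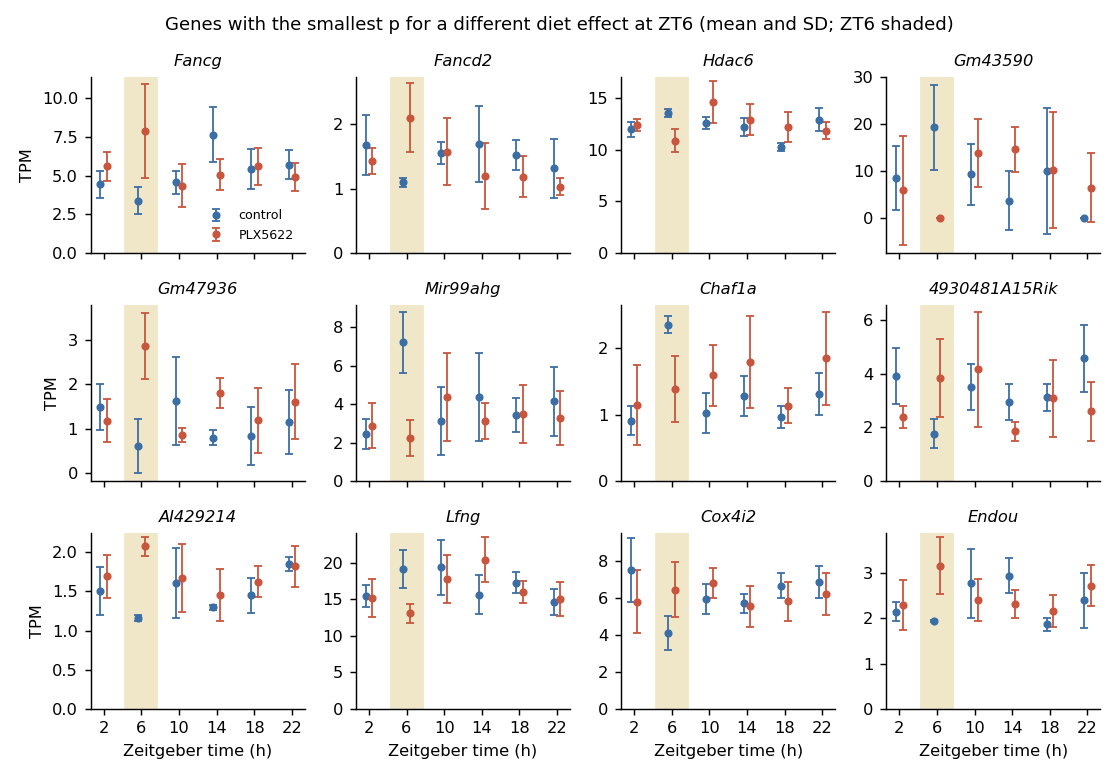
Mean TPM and SD at each Zeitgeber time of the 12 genes with the smallest p for a diet effect at ZT6 different from that at the other times, in control (blue) and PLX5622 mice (red), n = 4 per group and 3 for control mice at ZT14. At ZT6 (shaded) *Mir99ahg* is at 7.21 TPM in control and 2.23 TPM in PLX5622 mice, and at the other times at 2.45 to 4.37 and 2.88 to 4.37 TPM.

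The genes called at ZT6 and not over the other times numbered 9, namely *Gm47936*, *AI429214*, *Fancg*, *Mir99ahg*, *Isoc2b*, *Whrn*, *Atn1*, *Endou* and *Gm26982*. *Gm26982*, the last of them by p, is named because it completes the count. *Whrn*, a scaffold gene of hair cells and neurons, was at 23.2 to 27.2 TPM in control and 17.1 to 19.9 TPM in PLX5622 mice (effect -0.40 ± 0.10 at ZT6, -0.14 over the other times). *Atn1*, a corepressor gene, went from 67.8 ± 4.95 to 50.2 ± 5.26 TPM (effect -0.43 ± 0.11, -0.12 over the other times) and was lower at all 5 other times too. The adjusted p were 0.0408 and 0.042, and edgeR did not call either of them at ZT6 (adjusted p = 0.0735 and 0.275). edgeR did call *Whrn* over the other times (effect -0.20, adjusted p = 0.014), so its place among the 9 genes holds for TPM only. Of these 9 genes none was called for the difference itself, so none is shown to respond at ZT6 only.

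Some lists had called genes over the other times and none, or fewer, at ZT6. Over all genes tested, 2.78% were called over the other times and 1.01% at ZT6. The median SE was 0.07 and 0.15, so fewer calls at ZT6 are not by themselves a trait of this time. Cholesterol synthesis and uptake had 6 of 24 genes higher over the other times and 0 at ZT6, with median effects of 0.14 and -0.03. Of these genes, *Nsdhl*, a sterol dehydrogenase gene, had 0.14 at ZT6 and 0.21 at the other times, and 0 of the 24 passed for the difference. The choroid plexus list had 3 of 13 genes higher over the other times and 0 at ZT6. *Ttr*, the thyroid hormone carrier that dominates it, had an effect of 0.46 ± 0.58 at ZT6 and 0.87 over the other times, and the sum of the list was 579.5 to 1034 TPM in control and 769 to 1113 TPM in PLX5622 mice at ZT6. Cytosolic ribosomal protein genes had 8 of 33 lower over the other times and 0 at ZT6 (medians -0.10 and 0.01). Cathepsins had 12 and 6 of 23 lower, with like medians of -0.35 and -0.31. MHC presentation genes had 7 and 2 of 14 lower (medians -0.27 and -0.11). In limma 0 genes of any of the 34 lists passed for a difference between ZT6 and the other times.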

How the data were processed

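Cortical RNA of 47 mice was sequenced, with 4 mice per diet and time except 3 control mice at ZT14. For the TPM values, the authors aligned reads to GRCm38.p6 with STAR and quantified transcripts with Salmon against Gencode annotation, and deposited TPM for 54281 genes. The authors also deposited a table named for FPKM, whose values are whole numbers that differ in total between libraries and were therefore treated as raw counts of reads per gene (54532 genes). The submitters' processing notes list STAR and featureCounts, and the strand setting is not given in the sources used here.

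Groups were taken from the labels. The 14580 genes whose TPM averaged 1 or more over all libraries were analysed as log2(TPM + 1), and a model with a mean for each of the 12 groups was fitted with limma 3.58.1 in R 4.3.3 (lmFit and eBayes, two-sided, Benjamini-Hochberg threshold 0.05). The contrasts were PLX5622 minus control at ZT6, the mean of the same contrast over the other 5 times, and their difference. The sequencing principal components that the study used as covariates were not used here. Single library measures were compared by exact permutation tests. The alternatives were the 8 libraries at ZT6 alone, no filter, a minimum of 5 TPM, a pseudocount of 0.1, median-of-ratios scaling, a trend in eBayes, edgeR 4.0.16 (quasi-likelihood test, TMM) and DESeq2 1.42.0 on the counts, the replicate block, and each of the 8 libraries left out. The fits were first tested on simulated data. Positions came from GENCODE M21, which held 99.7% of the gene IDs.

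The text names the study's genes, the 12 largest falls, the genes called higher, the 12 smallest p for the difference and called or leading members of 34 gene lists. The members and lists were chosen with earlier results of these data known. TPM of a gene with several transcripts depend on how reads were assigned to them. The counts do not, so TPM and counts can differ. Same-numbered control and PLX5622 mice at ZT6 did not deviate together (correlations 0.11, -0.02, 0.02 and -0.09). At the other times most of these correlations were positive, and all were at ZT2 and ZT22. They ran from -0.09 (number 2 at ZT18) to 0.20 (number 3 at ZT14). The labels do not say whether the numbers mark a shared cage or batch, and the main fit does not model them. No pair of libraries of a group agreed within sampling noise (smallest chi-square per degree of freedom 4.56). Sequences were taken from RefSeq (GRCm38.p6). Some members of the lists are not reported here by name.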

Additional observations from a re-analysis of the deposited data

Results flagged for a closer look

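In each group of 4 mice at ZT6, the highest or lowest mouse was compared with its nearest neighbour by Dixon's ratio at its 95% critical value. Of 332 groups examined over 166 measures, 16 passed, and chance gives about 16.6. Control mouse 4 accounted for 10 of them. It was high in *Nr1d1* (72.3 TPM), *Unc93b1* (17.0 TPM), *Ggta1* (3.98 TPM), *Neurod2* (40.0 TPM), *Hba-a1*, an alpha-globin gene (501 TPM), the summed blood cell genes (3055 TPM) and the summed excitatory neuron genes (7535 TPM). The same mouse was low in *mt-Nd4l* (4337 TPM) and *Cox7b* (261 TPM), genes of the respiratory chain, and in the summed myelin genes (5498 TPM).

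Control mouse 3 was apart in *Siglech* (15.0 TPM) and *Mmp14*, a matrix protease gene (14 TPM). PLX5622 mouse 1 was apart in *Endou* (4.10 TPM) and in the summed astrocyte genes (5250.5 TPM), PLX5622 mouse 3 in *Csf1r* (2.89 TPM) and PLX5622 mouse 4 in *Cox4i2* (8.68 TPM).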

How the results depend on the processing

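The number of genes called at ZT6 changed with the filter and the tool. It was 229 with no filter (214 lower, 15 higher), 50 with a minimum of 5 TPM (47 lower, 3 higher), 284 with edgeR (259 lower, 25 higher) and 341 with DESeq2 (305 lower, 36 higher), and median-of-ratios scaling gave 13 higher genes. Over the other 5 times 221 genes were called with a minimum of 5 TPM, 976 with edgeR and 1129 with DESeq2, and 48, 249 and 282 of the genes called at ZT6 were called the same way there. Leaving out 1 library at a time gave 2 higher genes (without PLX5622 mouse 3) to 10 (without control mouse 3), and 3 without control mouse 2 or 4 or PLX5622 mouse 4. For the difference from the other times, DESeq2 called 1 gene (*Cd86*), edgeR called 1 between ZT6 and ZT2 (*Cd86*), and leaving out 1 library gave 0 to 1 genes, the 1 being *Fancg* without PLX5622 mouse 1. Between 13 and 18 homeostatic microglia genes were called in all these settings, the 13 with a minimum of 5 TPM. With the replicate block, 148 genes were called at ZT6 (140 lower, 8 higher) and 0 for the difference. The labels name no pairing and same-numbered mice at ZT6 did not deviate together, so the block replaces no value of the report. Of 2591 values of named genes at ZT6 under these alternatives, 2499 stayed on their side of the threshold, 85 lost and 7 gained a call, and none changed direction while called. With 4 mice per diet the median 95% interval of a diet effect reached 0.29 to either side on the log2 scale.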
